A study of Homo sapiens with 12 samples.

Results

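The 45 genes described here encode the proteins that license and fire replication origins, the working parts of the replication fork, and the complex that assembles chromatin behind it. They were taken by symbol from a fixed list, 45 of the 26475 entries in the gene table, and all 45 passed the filter on low counts that left 15353 genes for testing. The list was split by role into 19 licensing and firing genes and 26 genes of the replisome and chromatin assembly. RNA was sequenced from A375 cells, a human melanoma line, after 24 h in one of 4 treatments with 3 libraries each. The treatments were DMSO as the vehicle, 1 µM XL413, an inhibitor of the kinase CDC7, 1 µM OF1, an inhibitor of the bromodomain proteins BRPF1/2/3, or XL413 and OF1 together at those doses, called the combination below. The series text speaks of biological replicates without saying that each library had its own culture, and p-values therefore reflect only how much these 3 libraries per treatment varied. One cell line and one time point were sampled.

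In a cell about to divide, the origin recognition complex with CDC6 and CDT1 loads pairs of MCM helicases onto DNA, and geminin stops loading once S phase has begun. The kinase CDC7 with its partner DBF4 then phosphorylates MCM proteins, which lets CDC45 and the GINS complex join and turn the loaded helicase into an active one. Behind the helicase, primase starts each new strand, the clamp PCNA is loaded by RFC, polymerases delta and epsilon copy the DNA, and FEN1 and LIG1 finish the lagging strand. Many of these genes are transcribed through E2F factors as cells enter S phase.

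Promoter sequence was read first, because E2F control is the textbook link among these genes. RefSeq promoter entries on GRCh38.p14 were found for 39 of the 45 genes, 50 entries in all, and the 250 bases before each start were searched on both strands for the E2F-type motifs TTTCCCGC, TTTGGCGC, TTTCGCGC and TTTGCCGC. A match was present in 11 of the 50 entries (22%), against 2.79% of all 35116 promoter entries. The 11 genes with a match were ORC3, CDT1, GMNN, GINS2, TIPIN, POLA1, POLA2, POLE, PCNA, RFC3 and LIG1. The windows below are those of 4 genes that passed for a rise in the average effect of XL413 with and without OF1, though not for XL413 alone, and of TIPIN, which passed for a fall in the combination. The capitals mark the motif on either strand, and in TIPIN they mark a match on each strand that overlap.
ORC3, plus strand, chr6:87590035-87590134: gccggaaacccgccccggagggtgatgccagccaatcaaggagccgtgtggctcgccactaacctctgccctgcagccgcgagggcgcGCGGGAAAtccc
GINS2, minus strand, chr16:85688955-85689054: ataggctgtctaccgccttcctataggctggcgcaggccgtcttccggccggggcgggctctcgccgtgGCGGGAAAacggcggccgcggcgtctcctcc
PCNA, minus strand, chr20:5126628-5126727: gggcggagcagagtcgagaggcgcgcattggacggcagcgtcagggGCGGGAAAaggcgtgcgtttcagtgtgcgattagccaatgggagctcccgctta
RFC3, plus strand, chr13:33818048-33818147: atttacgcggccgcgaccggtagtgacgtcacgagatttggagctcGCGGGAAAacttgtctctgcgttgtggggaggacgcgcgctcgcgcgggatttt
TIPIN, minus strand, chr15:66356698-66356797: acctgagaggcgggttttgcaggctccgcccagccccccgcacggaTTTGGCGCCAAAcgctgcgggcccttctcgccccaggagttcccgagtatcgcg
The match in ORC3 lies within the last bases before the start, whereas in GINS2, PCNA, RFC3 and TIPIN it lies further upstream. A match is a description of letters in this window and not a site. PCNA and TIPIN each had 2 promoter entries, of which 1 held a match, and the window printed is from that entry.

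Levels were compared between genes as CPM per kb of exon, where CPM is the read count scaled to the TMM library size. PCNA, the sliding clamp, was the highest in DMSO at 200.04 CPM per kb. FEN1, the flap nuclease of Okazaki fragments, followed at 103 CPM per kb. The polymerase subunits POLD2 at 66.3 and POLE3 at 64.1 CPM per kb and RPA1, of the single-strand binding complex, at 53.8 CPM per kb came next. The lowest were TICRR, a firing factor, at 4.56 CPM per kb, WDHD1, which tethers polymerase alpha to the helicase, at 4.88 CPM per kb, and the polymerase epsilon subunit POLE2 at 5.23 CPM per kb. Subunits of one complex differed on this scale, as in ORC, where ORC6 stood at 27.5 and ORC4 at 5.72 CPM per kb. Before division by exon length they were closer, at 50.4 and 39.3 CPM, with 1.833 and 6.881 kb of exon. The annotation used in counting is not given, so the exon lengths need not match it. Each gene varied little: the highest of the 12 libraries was between 1.06 and 1.48 times the lowest, with a median over genes of 1.16, and 41 of the 45 genes had group means within 1.2-fold of each other. Median raw counts per gene ran from 402 (POLE2) to 9922.5 (PCNA).

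**Figure D1:**
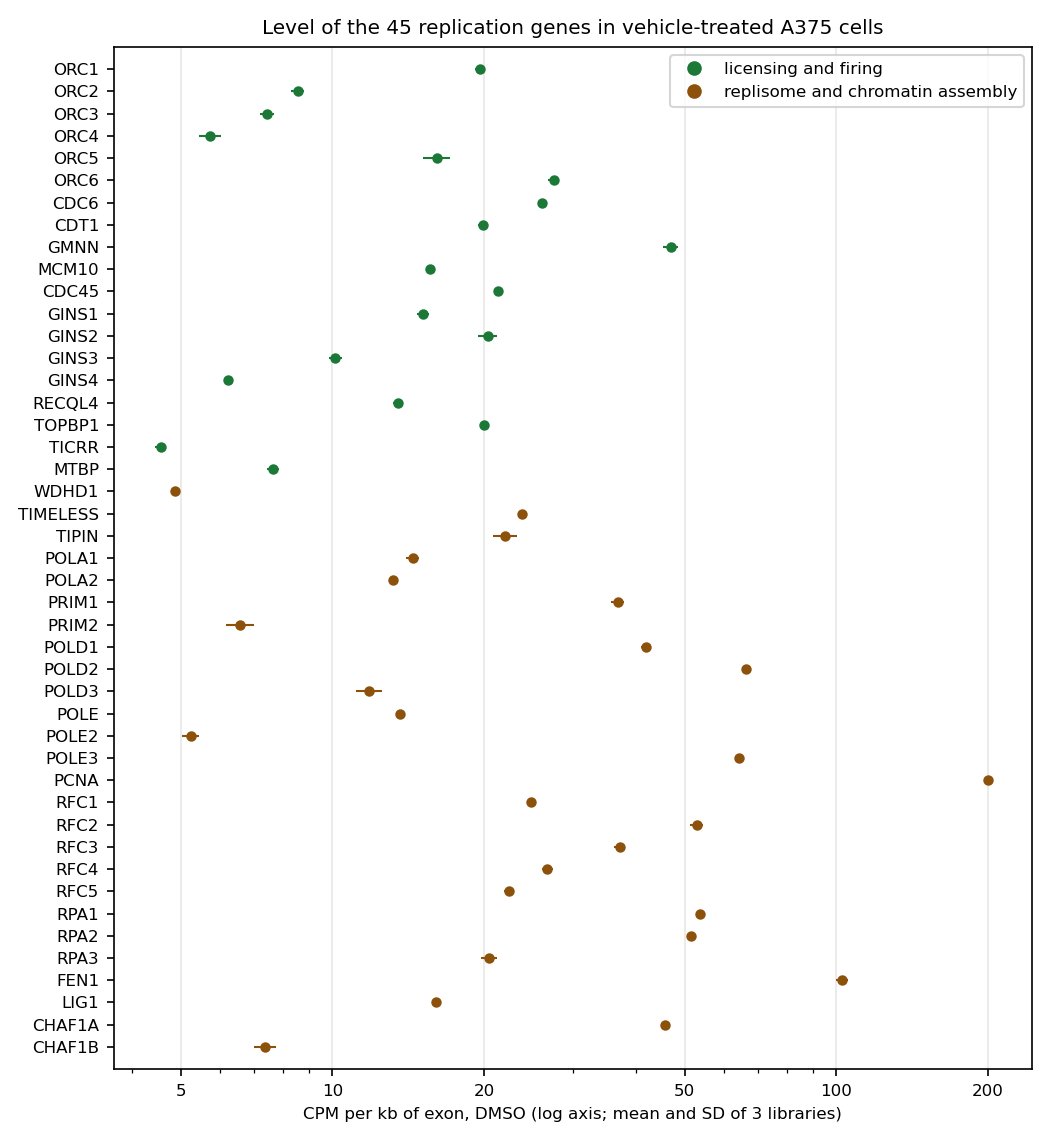
Mean level of each of the 45 genes in the 3 DMSO libraries, in CPM per kb of exon on a log axis, with the SD as bars and the 2 role groups in colour. PCNA stands at 200.04 CPM per kb and TICRR at 4.56.

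Total counts per library ran from 30499559 to 36062138. Of 10 listed melanoma and melanocyte genes, 7 had a count in every library. SOX10 ran from 318 to 386 CPM, AXL from 348 to 483, MITF from 32.8 to 44.4, S100B from 20.2 to 24.5 and S100A1 from 20 to 25.4. The pigment genes PMEL (0.33 to 1.04 CPM) and TYRP1 (0.0841 to 0.543) were low, and TYR, MLANA and DCT were at or near 0. The 4 keratinocyte genes listed summed to 82.4 to 103 CPM in DMSO, 105 to 112 in XL413, 79.8 to 106 in OF1 and 67.9 to 85.1 in the combination. Transcripts of skeletal muscle were also counted, 24 of 25 listed genes in every library and none at 0 in all, and their summed level was 117 to 302 CPM in DMSO, 172 to 366 in XL413, 167 to 379 in OF1 and 40.6 to 131 in the combination. Fibroblast genes (11 of 11 counted in every library) summed to 276 to 347 CPM in DMSO, 302 to 353 in XL413, 316 to 361 in OF1 and 90.5 to 215 in the combination. Combination libraries 2 and 3 were the lowest for the muscle and fibroblast lists. In bulk RNA fewer cells of a type and less RNA per cell cannot be told apart. The combination is therefore also given below with library 1 alone, and with a muscle score as a covariate. The mean score was 1.9 in DMSO, 2.48 in XL413, 2.62 in OF1 and 0.308 in the combination. A fit with this covariate therefore cannot fully tell the combination apart from the muscle transcripts.

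XL413 alone, which addresses what CDC7 inhibition does to these transcripts, gave small differences that did not pass the test one by one. None of the 45 genes passed at an adjusted p under 0.05 in edgeR's quasi-likelihood test with Benjamini-Hochberg adjustment, against 2.8% of all tested genes in either direction. Of the 45, 32 lay above 0, the median log2 change was 0.042 (all genes: 2.86e-06), and 14 had an unadjusted p under 0.05, all of them higher. Of all tested genes 18.6% had such a p, 9.14% higher and 9.43% lower. In 17 genes every XL413 library lay above every DMSO library, against 13% of all tested genes, and in 1 gene every one lay below, against 14.8%. The lowest adjusted p belonged to WDHD1 (0.0572 by edgeR), PRIM2 (0.0875) and RFC3 (0.0879). DESeq2 called 2 risen (PRIM2 and RPA3), where it called 4.18% of all tested genes in either direction, and limma-voom called 0, against 2.91%. Fitting the 6 libraries alone called 7 (GINS2, WDHD1, PRIM2, PCNA, RFC2, RFC3 and RPA3), where 9.3% of all genes passed. The 95% intervals of all 45 changes lay within 1.5-fold, and 44 of them within 1.3-fold.

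OF1 alone, the comparison for BRPF inhibition, gave small differences, most of them below 0. By edgeR's quasi-likelihood test none of the 45 passed, against 1.15% of all tested genes (0.58% risen and 0.567% fallen). DESeq2 and limma-voom called 0 as well, against 2.33% and 1.25% of all tested genes. The median log2 change was -0.029 (all genes: 0.0041), 31 genes lay below 0, and of the 10 with an unadjusted p under 0.05, 9 were lower and 1 higher, against 7.65% lower and 6.73% higher of all tested genes. Every OF1 library lay below every DMSO library in 9 genes, against 11.8% of all tested genes, and above in 4, against 10.2%. The smallest p belonged to POLD1, WDHD1 and RPA1, with adjusted p of 0.173, 0.212 and 0.214 by edgeR. All 45 intervals lay within 1.3-fold.

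The combination raised 8 of the 45 genes against DMSO and lowered 1. ORC3, GINS3, WDHD1, TIMELESS, PRIM2, RFC2, RFC3 and RPA3 rose and TIPIN fell by edgeR, against 5.65% of all tested genes risen and 5.07% fallen. Risen were 6 of the 26 replisome and chromatin assembly genes and 2 of the 19 licensing and firing genes, a difference that was not tested. The median log2 change was 0.073 (all genes: -0.0018), with 39 of 45 genes above 0. In 20 genes every combination library lay above every DMSO library, against 13.8% of all tested genes, and in 0 did every one lie below. All rises were under 1.3-fold, and none of the 9 passed a test against a 1.2-fold change. With combination library 1 alone 5 rose (ORC3, GINS3, WDHD1, PRIM2 and RFC3) and TIPIN fell, where 5.42% of all tested genes were called in either direction. With the 6 libraries alone 3 rose (ORC3, WDHD1 and PRIM2), where 5.89% were called, and with the muscle score as a covariate 0 passed (11 at an unadjusted p under 0.05). The covariate moved the median change from 0.073 to 0.06, the median standard error from 0.046 to 0.064, and the share of all tested genes called from 10.7% to 1.95%.

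Set against each inhibitor, the combination stood higher than OF1 but passed for no gene against XL413. Against OF1, 6 genes rose (ORC1, TIMELESS, PRIM2, POLD1, RFC2 and CHAF1A) and 0 fell by edgeR, against 5.5% of all tested genes in either direction (2.79% risen and 2.71% fallen), with a median log2 change of 0.10 and 42 of 45 genes above 0. In 21 genes every combination library lay above every OF1 library, against 11.2% of all tested genes. With library 1 of the combination alone, with the 6 libraries alone, or with the muscle covariate, 0 of these 6 passed, and 14, 19 and 9 genes respectively were higher at an unadjusted p under 0.05. In those fits 0.335%, 0.804% and 0.0586% of all tested genes were called. Against XL413, 0 of 45 passed by edgeR, DESeq2 or limma-voom, against 3.41%, 4.26% and 3.44% of all tested genes. By edgeR 5 of the 45 had an unadjusted p under 0.05 (16.8% of all tested genes). The median log2 change was 0.028 (all genes: 0.0079), and 33 of 45 genes lay above 0. Every combination library lay above every XL413 library in 7 genes, against 8.99% of all tested genes, and below in 1, against 10.4%. Non-additivity, the combination's change minus the changes with each inhibitor alone, passed for 0 of the 45 genes and 0 of the 15353 tested by edgeR. Of the 45, 3 had an unadjusted p under 0.05, all of them higher, against 10.2% of all tested genes (4.17% higher). The median log2 value was 0.056 (all genes: 0.0079), and 39 of 45 genes lay above 0. DESeq2 and limma-voom also called 0 of the 45 for non-additivity, against 0.71% and 0% of all tested genes. These comparisons share libraries, so they are not independent of one another.

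**Figure D2:**
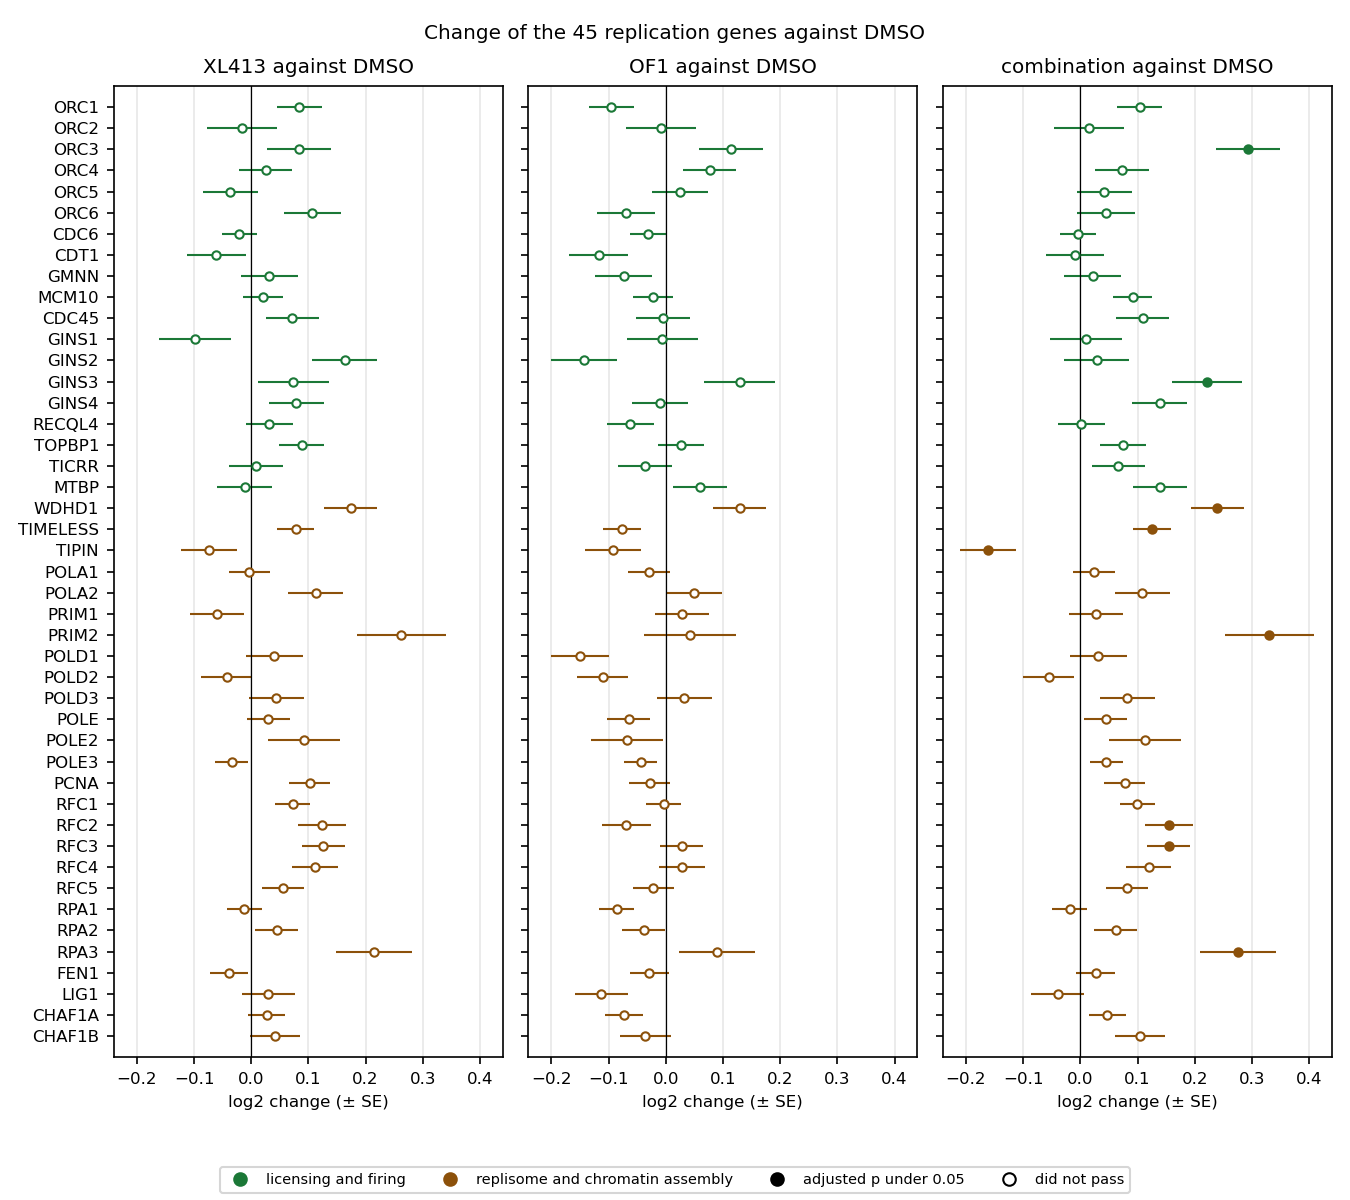
Log2 change of each of the 45 genes against DMSO in XL413, OF1 and the combination, with the standard error as bars and filled points for an adjusted p under 0.05. Filled points appear only in the combination, 8 above 0 and 1 below.

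Averaging the effect of XL413 with and without OF1 uses all 12 libraries, and 13 of the 45 genes rose while 0 fell. They were ORC1, ORC3, GINS2, GINS4, WDHD1, TIMELESS, PRIM2, PCNA, RFC1, RFC2, RFC3, RFC4 and RPA3, against 6.39% of all tested genes risen and 5.63% fallen by edgeR. The median log2 change was 0.073 (all genes: -0.0027), and 41 of 45 genes lay above 0. Of the 19 licensing and firing genes 4 rose, with a median of 0.063, and of the 26 replisome and chromatin assembly genes 9 rose, with a median of 0.083, a difference between role groups that was not tested. By role, 5 of the 6 clamp and clamp loader genes rose, 2 of 3 fork genes, 2 of 6 ORC genes, 2 of 10 firing factors, 1 of 4 primase and polymerase alpha genes and 1 of 3 RPA genes. None of the 3 genes of MCM loading control, 3 of polymerase delta, 3 of polymerase epsilon, 2 of lagging-strand maturation or 2 of chromatin assembly passed. In 7 genes (ORC1, GINS4, TIMELESS, RFC1, RFC2, RFC3 and RPA2) all 6 libraries with XL413 lay above all 6 without it, against 2.4% of all tested genes, and in 0 did they all lie below, against 1.72%. With the muscle covariate 4 of the 13 passed (ORC1, TIMELESS, PRIM2 and RFC2), and the median change went from 0.073 to 0.063 while its median standard error went from 0.033 to 0.041 and the share of all tested genes called from 12% to 3.39%. The average effect of OF1 passed for 1 gene, ORC3, against 4.94% of all tested genes in either direction (2.21% risen and 2.74% fallen), with a median over the 45 of 0.010.

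**Figure D3:**
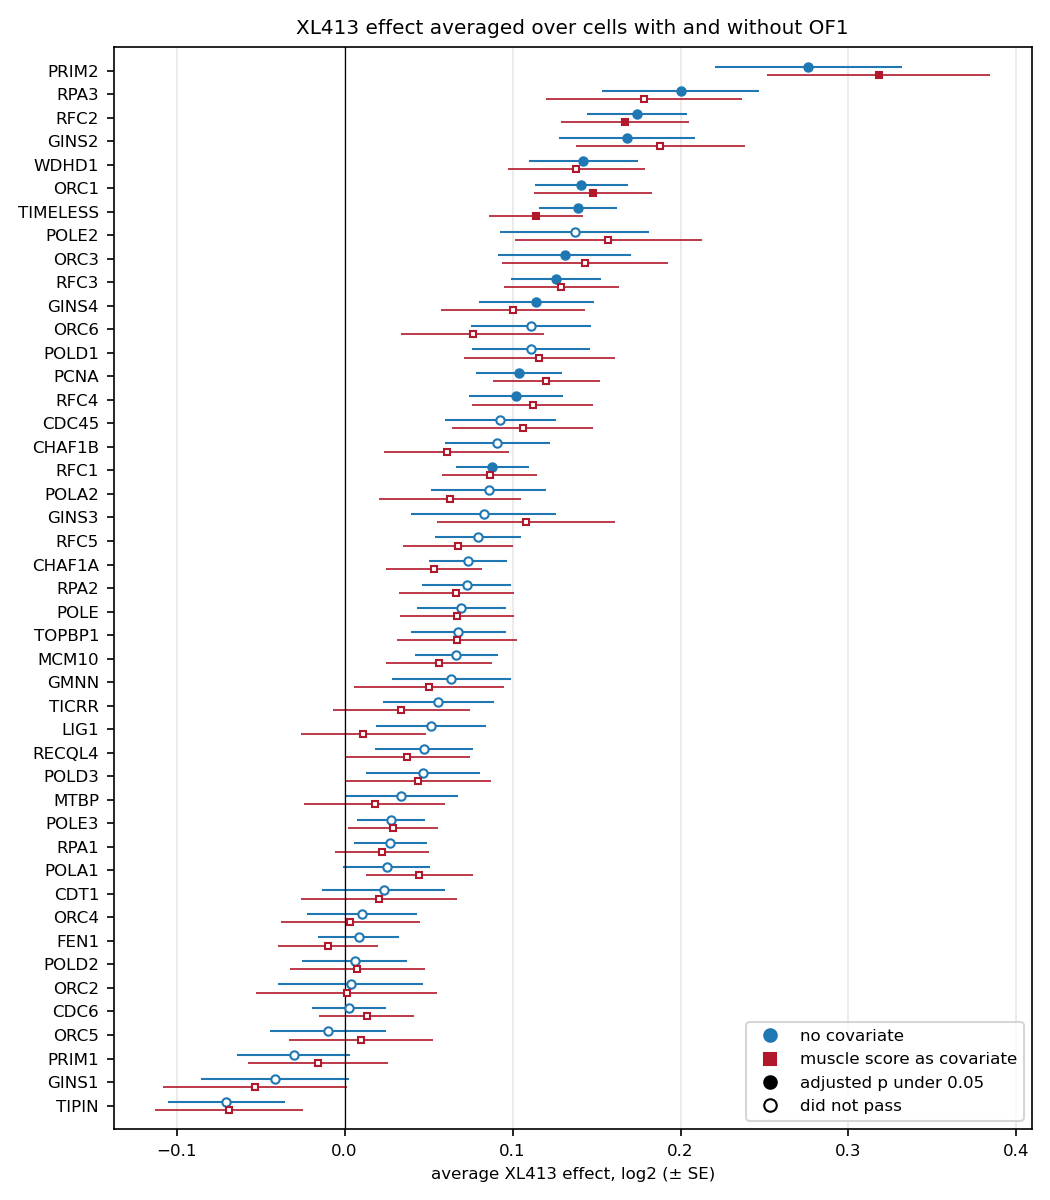
Average log2 effect of XL413 over both backgrounds for each of the 45 genes, ordered by size, without (circles) and with (squares) the muscle score as a covariate, with the standard error as bars. The 13 filled circles, with an adjusted p under 0.05, all lie above 0, and 4 squares are filled.

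Origin recognition is the first step of licensing. ORC1, its largest subunit (chr1:52372829-52409503, GRCh38.p14), was at 62.3, 63.1 and 60.4 CPM in DMSO and 66.7, 66.6 and 63.7 in XL413. It was at 57.4, 60.7 and 55.9 CPM in OF1 and 66.8, 65.8 and 67.0 in the combination. Every library with XL413 lay above every library without it, the average XL413 effect was 0.14 ± 0.028 on the log2 scale (adjusted p = 0.00573, edgeR), and combination against OF1 gave 0.20 ± 0.039 (adjusted p = 0.0124). ORC3 (chr6:87590135-87677823), a subunit of the complex's core, was at 18.4, 19.6 and 19.2 CPM in DMSO and 20.1, 20.3 and 20.3 in XL413. It was at 21.9, 19.7 and 20.4 CPM in OF1 and 25.0, 23.0 and 22.2 in the combination, so that every library of each treatment lay above every DMSO library. ORC3 was 1.23-fold higher in the combination than in DMSO (0.29 ± 0.056 log2, adjusted p = 0.00441, edgeR), a call kept when any one library was left out. Its average effects of XL413 (0.13 ± 0.040, adjusted p = 0.0433) and of OF1 (0.16 ± 0.040, adjusted p = 0.0294) were each lost on leaving out any one DMSO or XL413 library, among others. ORC2, ORC4, ORC5 and ORC6 passed in no comparison, and neither did CDC6, CDT1 and GMNN, the loading factors and the inhibitor of loading. ORC4 values were not whole in any of the 12 libraries, which RSEM gives where reads match more than 1 entry.

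Of the firing factors, 3 of the 4 GINS subunits passed somewhere, while CDC45, MCM10, RECQL4, TOPBP1, TICRR and MTBP passed nowhere. GINS2 (chr16:85676198-85688954) was at 56.4, 51.9 and 54.9 CPM in DMSO and 61.7, 61.0 and 60.1 in XL413. It was at 44.9, 51.5 and 51.5 CPM in OF1 and 52.9, 54.0 and 59.7 in the combination. All XL413 libraries lay above all DMSO libraries and all OF1 libraries below them, but the combination overlapped DMSO. The average XL413 effect on GINS2 was 0.17 ± 0.041 (adjusted p = 0.0163, edgeR), lost without DMSO library 2. GINS3 (chr16:58392471-58406147) was at 23.9, 23.8 and 25.1 CPM in DMSO and 24.1, 26.7 and 25.8 in XL413. Its levels were 27.5, 26.4 and 25.7 CPM in OF1 and 30.1, 25.6 and 29.2 in the combination. Every combination library was above every DMSO library, with a change of 0.22 ± 0.061 (adjusted p = 0.0325, edgeR) that was lost in 5 of the 6 fits that left out a library compared. GINS4, the remaining subunit to pass, was at 33.7, 33.5 and 34.4 CPM in DMSO and 35.3, 36.2 and 35.9 in XL413. Its levels were 34.4, 32.6 and 33.9 CPM in OF1 and 37.8, 39.6 and 34.5 in the combination. The 6 libraries with XL413 lay above the 6 without, by a small margin in combination library 3, and the average effect of 0.11 ± 0.034 (adjusted p = 0.0432, edgeR) was lost in 11 of the 12 fits that left out a library. GINS3 and GINS4 overlap exons of genes on the opposite strand by 394 and 1290 bases, and whether counting used strand is not given in the sources used here.

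All 3 fork genes passed somewhere. WDHD1 (chr14:54938949-55027099) was at 29.4, 29.3 and 29.5 CPM in DMSO and 32.8, 32.1 and 34.5 in XL413. It was at 32.9, 32.4 and 31.1 CPM in OF1 and 36.4, 34.6 and 33.1 in the combination. Every treated library was above every DMSO library, with 29.4 ± 0.137 CPM in DMSO and 34.7 ± 1.64 CPM in the combination (mean ± SD, n = 3). WDHD1 was 1.18-fold higher in the combination (0.24 ± 0.046 log2, adjusted p = 0.00464, edgeR), and the average XL413 effect was 0.14 ± 0.032 (adjusted p = 0.0126); both calls were kept when any one library was left out. The changes in XL413 (0.17 ± 0.046) and OF1 (0.13 ± 0.046) each missed the threshold.

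TIMELESS (chr12:56416363-56449426) and TIPIN (chr15:66336191-66386717) form the fork protection complex. Their changes against DMSO differed in sign with XL413 and with the combination. With OF1 both were below 0, at -0.076 and -0.093 on the log2 scale. TIMELESS was at 125, 121 and 120.5 CPM in DMSO and 129.7, 129 and 128 in XL413. It was at 119, 115 and 113 CPM in OF1 and 130.1, 137 and 133 in the combination. All libraries with XL413 lay above all without it, all OF1 libraries lay below all DMSO libraries, and the average XL413 effect was 0.14 ± 0.023 (adjusted p = 0.00215, edgeR). Against OF1 the combination was higher by 0.20 ± 0.033 (adjusted p = 0.00484), and against DMSO by 0.13 ± 0.033 (adjusted p = 0.026), the latter lost without DMSO library 2 or 3 or combination library 2. TIPIN was at 39.4, 36.1 and 39.8 CPM in DMSO and 36.6, 37.2 and 35.7 in XL413. Its levels were 35.3, 36.1 and 36.7 CPM in OF1 and 32.5, 34.4 and 36.2 in the combination. The combination overlapped DMSO, through combination library 3 and DMSO library 2. TIPIN fell in the combination, with a log2 change of -0.16 ± 0.049 (adjusted p = 0.0493, edgeR), a call that 8 of 11 other settings and 4 of 6 fits leaving out a library ended.

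Primase makes the RNA primers of each strand with polymerase alpha. PRIM2 (chr6:57221540-57646850), the large primase subunit, was at 16.8, 19.1 and 18.2 CPM in DMSO and 22.8, 19.6 and 22.5 in XL413. It was at 18.3, 19.9 and 17.6 CPM in OF1 and 25.0, 22.4 and 20.8 in the combination. Libraries of XL413 and of the combination all lay above those of DMSO, while OF1 overlapped DMSO. PRIM2 showed the largest fold of the 45 genes in the combination, 1.26-fold (0.33 ± 0.078 log2, adjusted p = 0.0157, edgeR), lost without DMSO library 1 or 3. Its average XL413 effect of 0.28 ± 0.056 (adjusted p = 0.00661) was kept when any one library was left out, and the rise over OF1 was 0.29 ± 0.078 (adjusted p = 0.045), lost in 5 of 6 such fits. PRIM1, the catalytic subunit, and POLA1 and POLA2 passed in no comparison.

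Polymerase delta and RPA held genes whose lowest values were in OF1. POLD1, the catalytic subunit, was at 145, 148 and 152 CPM in DMSO and 158, 152 and 147 in XL413. It was at 128, 134 and 138 CPM in OF1 and 138, 156 and 160.1 in the combination. Each OF1 library was below each DMSO and XL413 library, with a change against DMSO of -0.15 ± 0.050 (adjusted p = 0.173, edgeR). The combination was higher than OF1 by 0.18 ± 0.050 (adjusted p = 0.0478), although the highest OF1 and the lowest combination library were both at 138 CPM, and that call was lost in 5 of 6 fits that left out a library. RPA1 was at 233, 236 and 231 CPM in DMSO and 229, 232 and 233 in XL413. Its levels were 213, 227 and 219 CPM in OF1 and 227, 234 and 230.3 in the combination. The OF1 libraries lay below all DMSO and XL413 libraries and overlapped the combination, and the change against DMSO of -0.086 ± 0.031 (adjusted p = 0.214, edgeR) missed the threshold.

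RPA3 (chr7:7636518-7718607) is the smallest subunit of the single-strand binding complex. RPA3 was at 45.7, 43.1 and 42.8 CPM in DMSO and 47.6, 52.7 and 52.4 in XL413. It was at 44.9, 46.6 and 48.5 CPM in OF1 and 49.6, 49.9 and 59.8 in the combination. The XL413 and combination libraries lay above all DMSO libraries, with combination library 3 the highest of the 12. RPA3 rose by 0.28 ± 0.066 on the log2 scale in the combination (adjusted p = 0.0172, edgeR), lost without DMSO library 2 or 3, and its average XL413 effect of 0.20 ± 0.047 (adjusted p = 0.0141) was kept when any one library was left out. RPA3 values were not whole in 7 libraries, and the gene overlaps UMAD1 on the opposite strand. RPA2 passed in no comparison.

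The clamp and its loader are the roles in which most genes rose in the average XL413 effect, 5 of 6. PCNA (chr20:5114953-5126622) was at 297, 291 and 295 CPM in DMSO and 309, 317 and 321 in XL413. It was at 277, 298 and 291 CPM in OF1 and 313, 297 and 322 in the combination. All XL413 libraries were above all DMSO libraries, while the combination, through library 2, and OF1 overlapped DMSO. The average XL413 effect on PCNA was 0.10 ± 0.026 (adjusted p = 0.0182, edgeR), lost without DMSO library 2 or XL413 library 3. PCNA values were not whole in 11 libraries. RFC1, the large subunit of the loader, was at 121, 123 and 121 CPM in DMSO and 129.9, 125 and 128 in XL413. It was at 123, 121 and 119.7 CPM in OF1 and 132, 132 and 127 in the combination. All libraries with XL413 lay above all without it, and the average effect was 0.088 ± 0.022 (adjusted p = 0.0182, edgeR), lost without DMSO or XL413 library 3.

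RFC2, RFC3 and RFC4 are small subunits of the same loader. RFC2 (chr7:74231502-74254399) was at 95.1, 92.6 and 89.7 CPM in DMSO and 101, 103 and 97.8 in XL413. It was at 84.5, 88.0 and 91.9 CPM in OF1 and 98.1, 104 and 106 in the combination. Libraries with and without XL413 did not overlap, and the average effect was 0.17 ± 0.030 (adjusted p = 0.00244, edgeR). The combination was 1.17-fold higher than OF1 (adjusted p = 0.00973), kept when any one library was left out, and 1.11-fold higher than DMSO (adjusted p = 0.0297), lost in 4 of 6 such fits. RFC3 (chr13:33818149-33977377) was at 109.9, 106 and 105 CPM in DMSO and 113, 121 and 116 in XL413. It was at 106, 109 and 112 CPM in OF1 and 122, 119.6 and 115 in the combination. Here too libraries with and without XL413 were separate, with an average effect of 0.13 ± 0.027 (adjusted p = 0.00869, edgeR) kept when any one library was left out, and a rise over DMSO of 0.15 ± 0.038 (adjusted p = 0.0185) lost in 3 of 6 such fits. RFC4 was at 42.6, 41.7 and 43.8 CPM in DMSO and 45.05, 46.2 and 47.1 in XL413. Its levels were 41.9, 43.2 and 45.5 CPM in OF1 and 46.3, 46.4 and 46.3 in the combination. The combination libraries agreed to within a tight range above DMSO, OF1 library 3 lay among the XL413 libraries, and the average effect of 0.10 ± 0.028 (adjusted p = 0.0306, edgeR) was lost in 7 of 12 fits that left out a library. RFC5 passed in no comparison.

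In lagging-strand maturation and chromatin assembly 1 of 4 genes passed anywhere. FEN1 and LIG1, which trim and seal Okazaki fragments, passed in no comparison, and neither did POLD2, POLD3, POLE, POLE2, POLE3 or CHAF1B. CHAF1A, the large subunit of the histone chaperone CAF-1, was at 153, 154 and 149.98 CPM in DMSO and 156, 157 and 152 in XL413. It was at 148, 144 and 143 CPM in OF1 and 151, 160.5 and 160.4 in the combination. Each combination library exceeded each OF1 library, by 0.12 ± 0.033 (adjusted p = 0.0478, edgeR), but the combination overlapped DMSO, and the call was lost in 5 of 6 fits that left out a library.

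**Figure D4:**
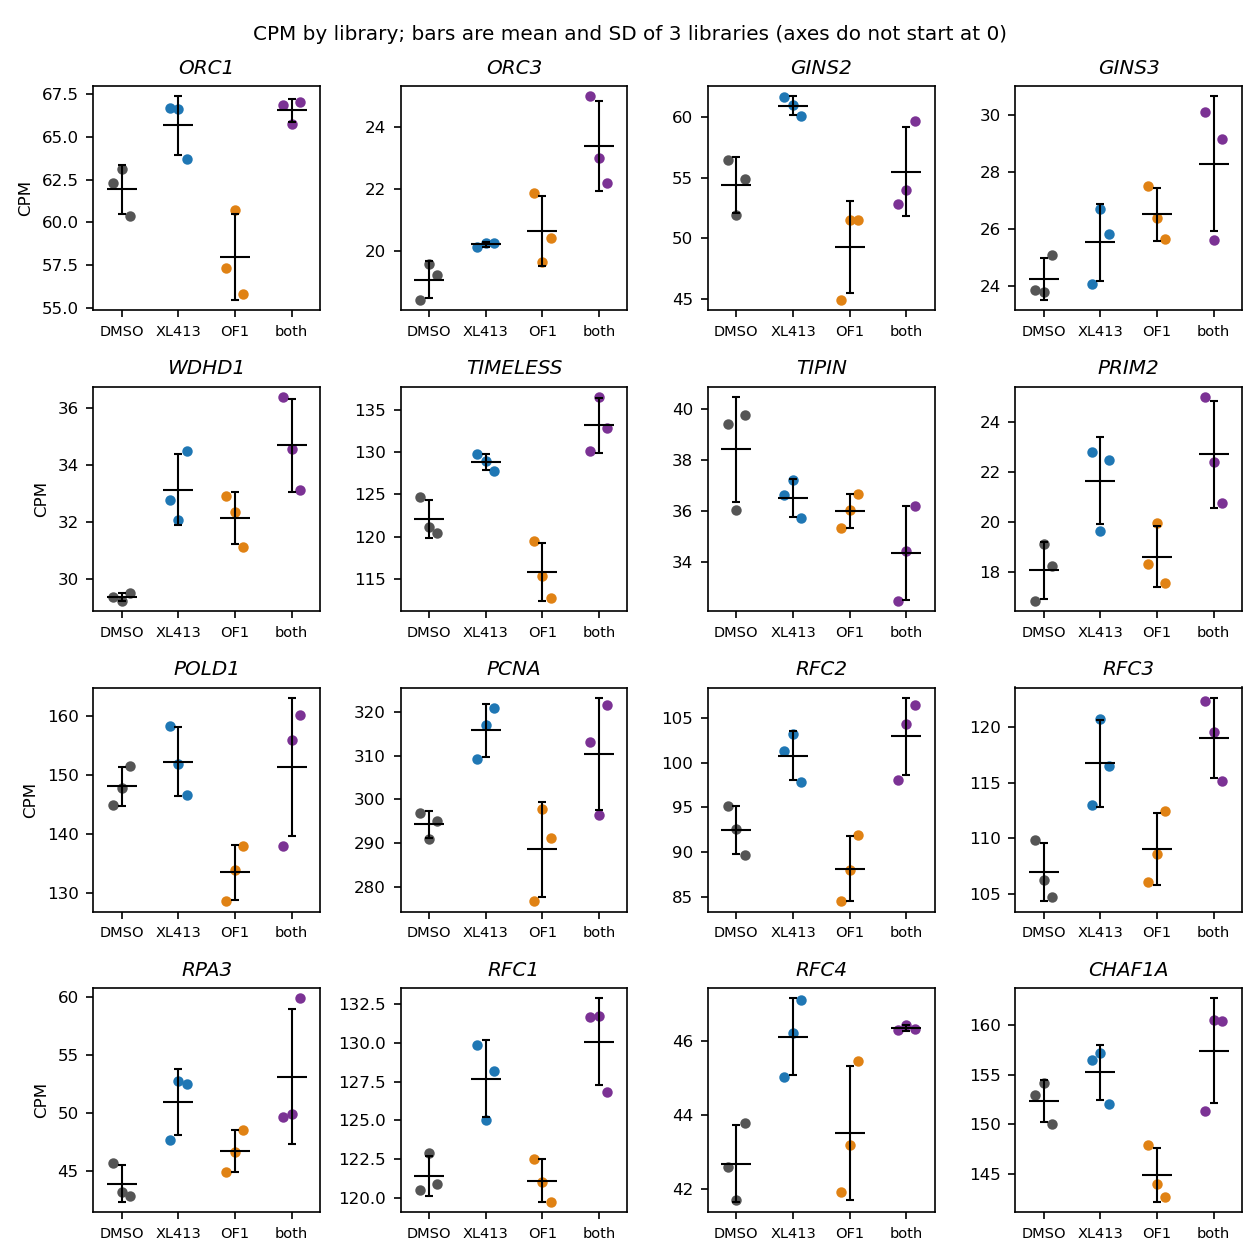
Level of 16 of the 17 genes that passed in any comparison (GINS4 is not drawn) in each of the 12 libraries, in CPM, by treatment, with 1 point per library and bars for the mean and SD of 3 libraries; the axes do not start at 0. The combination points of WDHD1 and ORC3 lie above all 3 DMSO points, and those of TIPIN overlap them.

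The other 28 genes passed in no comparison. Among the loading factors, CDC6, which brings MCM to the origin complex, had group means of 125 ± 1.85 CPM in DMSO, 124 ± 2.70 in XL413, 123 ± 2.01 in OF1 and 125 ± 1.92 in the combination (mean ± SD, n = 3). CDT1, its partner in loading, was at 64.6 ± 1.56 CPM in DMSO, 61.9 ± 2.95 in XL413, 59.5 ± 2.29 in OF1 and 64.1 ± 4.38 in the combination. The OF1 libraries of CDT1 lay below all DMSO libraries, with a log2 change of -0.12 ± 0.052 (adjusted p = 0.316, edgeR). MTBP, which acts with TICRR in origin firing, was at 23.4 ± 0.652 CPM in DMSO and 25.7 ± 1.31 in the combination, where every library lay above every DMSO and every XL413 library. Its change of 0.14 ± 0.048 against DMSO (adjusted p = 0.0766, edgeR) missed the threshold. GINS1, the remaining GINS subunit, was at 49.2 ± 1.42 CPM in DMSO and 45.9 ± 1.46 in XL413, all XL413 libraries below all DMSO libraries, with a log2 change of -0.098 ± 0.063 (adjusted p = 0.434, edgeR). Of the polymerase epsilon genes POLE2 had the largest average XL413 effect, 0.14 ± 0.044 (adjusted p = 0.0579), and ORC6 gave 0.11 ± 0.036 (adjusted p = 0.0553), both just outside the threshold by edgeR. LIG1 was lowest in OF1, at 65.2 ± 1.66 CPM against 70.5 ± 1.39 in DMSO, with a change of -0.11 ± 0.046 (adjusted p = 0.279, edgeR). Over all 28 genes the changes against DMSO ran from -0.098 (GINS1) to 0.11 (POLA2) with XL413, from -0.12 (CDT1) to 0.077 (ORC4) with OF1, and from -0.055 (POLD2) to 0.14 (MTBP) with the combination.

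Changes were also read by promoter match, for the 39 genes with a promoter entry. GINS4, RECQL4, MTBP, POLD3, RPA2 and RPA3 had no entry and are left out. For the average effect of XL413, 4 of 11 genes with a match rose (median log2 change 0.07), and 7 of 28 without a match rose (median 0.076). Of all tested genes 6.39% rose. Against DMSO the combination raised 2 and lowered 1 of the 11, and raised 5 of the 28, against 5.65% of all tested genes risen and 5.07% fallen. Against OF1 the combination raised 0 of the 11 and 6 of the 28, against 2.79% of all tested genes. No test was run on these counts.

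Other replication genes, a list of 38 symbols with 37 tested, were read for comparison. The symbol not tested was CDT2, another name of DTL, which was tested. XL413 raised 2 of them and lowered 1: MCM3, of the helicase, by 0.29 ± 0.034 (adjusted p = 0.000485, edgeR) and DTL, the receptor of the ligase that degrades CDT1, by 0.17 ± 0.035, while SKP2, of another CDT1-directed ligase, changed by -0.18 ± 0.042. OF1 lowered 1, MCM2, which changed by -0.14 ± 0.029. The combination raised 6, namely MCM3 (0.31 ± 0.034), MCM4 (0.10 ± 0.029), MCM7 (0.12 ± 0.033), the CDC7 partner DBF4 (0.16 ± 0.042), the polymerase delta subunit POLD4 (0.26 ± 0.053) and DTL (0.34 ± 0.035), and lowered 3, the alternative clamp loader subunit CHTF18 (-0.16 ± 0.045), SSRP1 of the histone chaperone FACT (-0.093 ± 0.027) and SKP2 (-0.21 ± 0.042), on the log2 scale by edgeR. The average XL413 effect raised 9 and lowered 3 of the 37, against 6.39% of all tested genes risen and 5.63% fallen. For XL413 alone these shares were 1.26% and 1.54%, for OF1 alone 0.58% and 0.567%, and for the combination 5.65% and 5.07%.

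Of the cell cycle lists read beside these genes, G2/M medians lay on the same side of 0 as theirs in all treated libraries. The G1/S medians did so in OF1, but were slightly below 0 in XL413 and near 0 in the combination. Of 27 G2/M genes, XL413 raised 11 and lowered 2 (median log2 change 0.117), OF1 raised 0 and lowered 3, and the combination raised 15 and lowered 2 (median 0.127) against DMSO. Of 17 G1/S genes, XL413 raised 0 and lowered 2 (median 0.0035) and the combination raised 2 and lowered 1 (median -0.013) by edgeR. With XL413, 10 of the 17 had an unadjusted p under 0.05, 6 higher and 4 lower. Of all tested genes 9.14% were higher and 9.43% lower at that p. OF1 changed 0 of the 17 in either direction. At an unadjusted p under 0.05 there were 5, all of them lower, against 14.4% of all tested genes (7.65% lower). Of all tested genes, XL413 raised 1.26% and lowered 1.54%, OF1 raised 0.58% and lowered 0.567%, and the combination raised 5.65% and lowered 5.07%. Relative to the DMSO mean, the median of the 26 replisome genes was 0.041 to 0.0712 in the 3 XL413 libraries, -0.0405 to -0.0111 in OF1 and 0.0678 to 0.104 in the combination. The median of the G2/M genes was 0.101 to 0.12, -0.0655 to -0.0131 and 0.119 to 0.145 in the same libraries. The median of the G1/S genes was -0.0184 to -0.00536 in XL413, -0.0535 to -0.0155 in OF1 and -0.0147 to 0.00143 in the combination. The part of cell cycle distribution or of the muscle transcripts in the changes of the 45 genes was not tested beyond the covariate values given above.

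**Figure D5:**
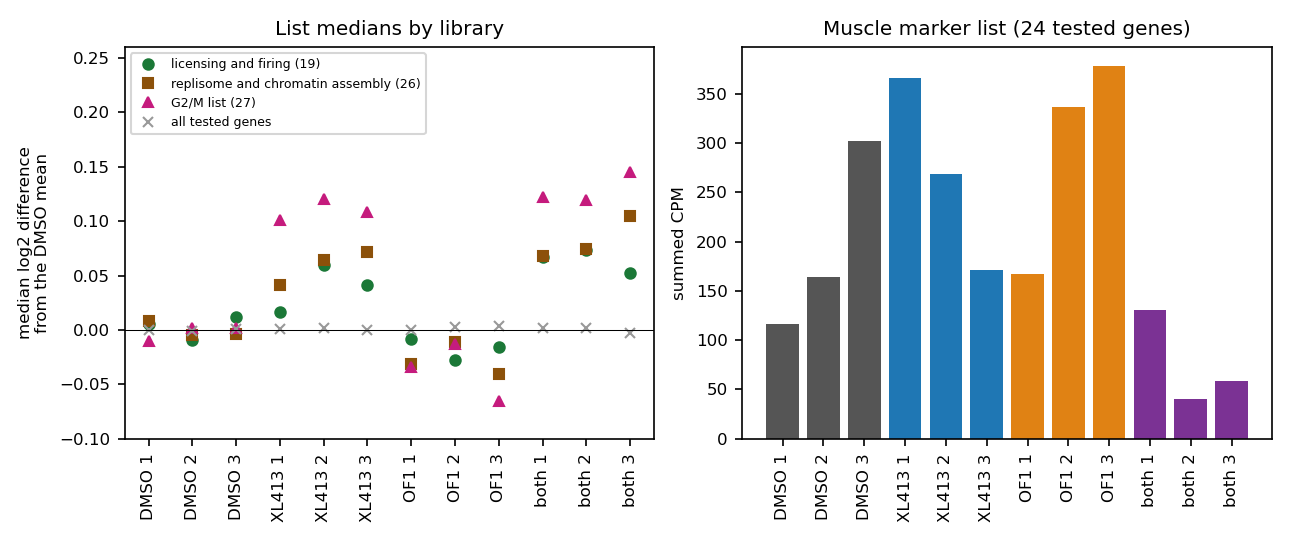
Left, median log2 difference from the DMSO mean in each library for the licensing and firing genes, the replisome genes, the G2/M genes and all tested genes; right, summed CPM of the muscle genes in each library. The 6 libraries with XL413 sit above the others for the replisome and G2/M genes, and combination libraries 2 and 3 hold the lowest muscle sums.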

How the data were processed

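The values the authors deposited are expected counts by gene symbol, which can be fractional and carry no scaling for depth. The tools RSEM 1.2.15 and Bowtie2 2.1.0 and the hg38 build are listed per the submitters' processing notes. Which annotation was used, and whether strand was, is not given in the sources used here. Poly(A) RNA and dUTP strand marking are stated per the labels' protocols. Fractional values made up 10.6% of the table and were rounded. All 12 columns were matched to samples by name.

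edgeR 4.0.16 in R 4.3.3 was run on the 15353 of 26475 entries that passed filterByExpr, with TMM factors, 1 mean per group over 12 libraries (8 residual degrees of freedom), the quasi-likelihood F test and Benjamini-Hochberg adjustment over all tested genes at 0.05. Standard errors were derived as |log2 change| over root F. The 8 contrasts were each treatment against DMSO, the combination against each inhibitor, non-additivity, and the average effect of each inhibitor. DESeq2 1.42.0 and limma-voom (limma 3.58.1) were alternatives, with other scalings, filters, library sets, a covariate, a replicate block and a 1.2-fold test. The muscle score is the mean log2 CPM of the muscle list.

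On counts simulated for XL413 against DMSO over 15353 genes, with changes in genes of mean CPM of at least 10, the fit recovered 8.67% of 1.1-fold, 67.3% of 1.2-fold, 90.7% of 1.3-fold and 100% of 1.5-fold changes, and called 17 of 45459 unchanged genes. Pairs of replicate libraries differed by more than counting noise, so none was merged.

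The members, lists and tests were chosen with earlier results of these data known. Genes named with values in every library are those that passed in any of the 8 contrasts, and the 3 of smallest p in each comparison against DMSO; other replication genes are named where they passed against DMSO. Positions and promoters are from RefSeq on GRCh38.p14, and exon lengths from GENCODE 29, matched by symbol.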

Additional observations from a re-analysis of the deposited data

How the results depend on the processing

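The changes are small, and the effect of depth on them was not tested. In each comparison the intervals of the genes that did not pass lay within 1.5-fold, and on simulated counts for XL413 against DMSO (15353 genes) 8.67% of 1.1-fold changes were recovered. Of the 29 calls on single genes, 0 reversed under any setting and 0 were kept under every setting, since a test against a 1.2-fold change gave 0 risen in the combination against DMSO, 0 against OF1, 0 for the average XL413 effect and 0 for that of OF1. That test called 0.221%, 0.0586%, 0.0716% and 0.137% of all tested genes in the same order. Genes risen with XL413 alone numbered 0, against 2 by DESeq2, 1 with a filter of CPM of at least 1 (WDHD1) and 7 with the 6 libraries alone. In those fits 2.8%, 4.18%, 3.54% and 9.3% of all tested genes were called in either direction. In the combination against DMSO 8 rose, against 3 with 6 libraries, 5 with combination library 1 alone and 0 with the muscle covariate. The 1 gene that fell in the combination against DMSO, TIPIN, became 0 by DESeq2, limma-voom, upper-quartile factors, no low-count filter, the muscle covariate, the 1.2-fold test, the 6 libraries and the replicate block. Against OF1 6 rose, against 0 with 6 libraries and 0 with the muscle covariate, where 5.5%, 0.804% and 0.0586% of all tested genes were called. The average XL413 effect raised 13, and 4 with the muscle covariate, where 12% and 3.39% of all tested genes were called. The average OF1 effect raised 1, against 0 with the muscle covariate, and lowered 0, against 1 by DESeq2 (GINS2) and 1 with no low-count filter (GINS2). Of all tested genes 4.94% were called in the main fit, 2.01% with the covariate, 5.58% by DESeq2 and 3.51% with no low-count filter. The cause was not tested, except that the 1.2-fold test asks for a larger change and the library subsets hold fewer libraries.

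Leaving out 1 library at a time gave 2 to 9 risen and 0 to 1 fallen in the combination against DMSO, 2 to 10 risen against OF1, and 0 to 2 risen against XL413. It gave 8 to 18 risen for the average XL413 effect, and 0 to 2 risen and 0 to 1 fallen for that of OF1. XL413 and OF1 against DMSO stayed at 0 called. In those fits 4.69% to 13.6% of all tested genes were called in the combination against DMSO. The range was 1.37% to 14.3% against OF1 and 1.08% to 5.33% against XL413. It was 6.77% to 18.7% for the average XL413 effect and 2.66% to 7.2% for that of OF1. XL413 and OF1 against DMSO gave 0.554% to 1.85% and 0.271% to 0.509%. Calls kept in every such fit were ORC3 and WDHD1 against DMSO, RFC2 and TIMELESS against OF1, and ORC1, PRIM2, RFC2, RFC3, RPA3, TIMELESS and WDHD1 for the average XL413 effect.

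Replicate numbers did not pair the libraries: of 18 same-numbered pairs 1 had a correlation of deviations over 0.1 (range -0.16 to 0.2), and 1 of 12 libraries correlated best with its own number. With the replicate block 8 rose in the combination against DMSO, 4 against OF1, 11 for the average XL413 effect and 1 for that of OF1. XL413 and OF1 alone gave 0. The shares of all tested genes called in either direction were 10.2%, 5.54%, 12%, 4.36%, 2.35% and 0.821%, in that order.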
